A study of Mus musculus with 9 samples.

Results

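Neutrophils were sought in single-cell RNA-seq of ependymoma and of normal brain. They were selected on measured values: a barcode counted as a neutrophil when it held at least 1 UMI (a unique molecular identifier, 1 counted RNA molecule) in 4 or more of the 10 genes S100a8, S100a9, Retnlg, Camp, Ngp, Lcn2, Csf3r, Cxcr2, Mmp8 and Wfdc21. All deposited barcodes with at least 200 genes and under 15% mitochondrial UMIs were searched. Of 287538 such kept barcodes in 9 mice, 85 met the rule, 80 of them in 5 tumors and 5 in 4 control brains.

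The tumors were EP ZFTA-RELA ependymomas, in which a nestin-driven, tamoxifen-inducible Cre (NestinCreERT2) turns on a conditional ZFTA-RELA fusion gene (Fus1 in the genotype labels). The control mice carried the same Cre with a TdTomato reporter (NestinCreERT2;TdT) that the labels list for controls only, although the study's methods describe dissection of tumor and matched brain by TdTomato signal. All mice were 6 to 8 weeks old, and each is 1 library made with a droplet 5′ kit. Tumor or brain tissue was dissociated, cleared of myelin in Percoll, and sorted with DAPI and an antibody to Ter119, a red cell antigen. The study's methods also describe an antibody to CD45 given into the blood shortly before collection, which marks cells in vessels. The labels of these libraries do not name it, and they do not state whether neutrophils in vessels were left out.

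Neutrophils are short-lived phagocytes made in the bone marrow. Their granule proteins are made in order. Azurophil (primary) granule enzymes such as myeloperoxidase come at the promyelocyte stage. Specific (secondary) granule proteins such as cathelicidin (Camp), neutrophilic granule protein (Ngp) and lactoferrin (Ltf) come at the myelocyte and metamyelocyte stages. Gelatinase (tertiary) granule proteins such as Mmp9 come later. Released cells hold less of the Camp, Ngp and Ltf transcripts and express Cxcr2, the receptor that draws them to CXC chemokines, Csf3r, the G-CSF receptor, and Retnlg, a resistin-like secreted protein. S100a8 and S100a9 together form calprotectin, the most abundant cytosolic protein of the cell. The normal brain parenchyma holds few neutrophils.

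Total depth was 101060608 to 178086164 UMIs in the control libraries and 14967680 to 69411387 in the tumor libraries. The quality limits kept 62.5% to 73.6% of the control barcodes, but 17.1%, 41.6%, 74.5%, 99.7% and 99.98% of the barcodes of tumors 1 to 5. This left 51421 to 59531 kept barcodes in each control and 3448 to 26335 in each tumor, which in every control and in tumors 4 and 5 is more than the number of cells that the methods give as loaded. The deposited barcodes start at 468 to 517 UMIs, so free RNA was read only roughly, from 3000 barcodes with few UMIs in each library. Most kept barcodes were not immune. At least 1 UMI in 3 or more of Ptprc, Tyrobp, Fcer1g, Cd52, Laptm5 and Coro1a was found in 1760 control barcodes and 8147 tumor barcodes, which are called immune barcodes here. Of the 83 neutrophil barcodes whose names could be read, 6 carried a barcode name that was also deposited for another library, and 0 were neutrophils in both.

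Neutrophil barcodes made up a larger share of kept barcodes in every tumor than in every control brain. Control mice 1 to 4 held 2, 1, 0 and 2 neutrophils, or 0.00370%, 0.00194%, 0% and 0.00336% of kept barcodes. The 0 of 54720 barcodes in control 3 allows a share of up to 0.00548%. Tumors 1 to 5 held 2, 55, 4, 10 and 9 neutrophils, or 0.0580%, 0.759%, 0.0596%, 0.0416% and 0.0342%. The means were 0.00225% ± 0.00168 (SD, n = 4) and 0.190% ± 0.318 (SD, n = 5), and the 2 groups did not overlap (two-sided exact permutation test over mice, p = 0.0159, the smallest that splits of 5 against 4 can give). Tumor 1 held as many neutrophils as controls 1 and 4, in 3448 kept barcodes against 54114 and 59531. Its 95% exact binomial interval of 0.00703% to 0.209% overlapped those of controls 1, 2 and 4, which reached 0.0134%, 0.0108% and 0.0121%. The intervals of tumors 2 to 5 lay above those of all controls. Tumor 2 stood apart, with an interval of 0.572% to 0.986%, and held 55 of the 80 tumor neutrophils. Without it the difference in means fell from 0.188 to 0.0461 percentage points, and the 4 remaining tumors were still above the 4 controls (exact permutation p = 0.0286). When the search was limited to the 10000 barcodes with most UMIs in each library, tumor 4 held 0 neutrophils, the control mean was 0.00993%, and the comparison gave an exact permutation p of 0.0794.

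Among immune barcodes alone the groups overlapped. Only neutrophils that were themselves immune barcodes were counted here, 3 of 5 in the controls and 72 of 80 in the tumors. The 3 control mice with any neutrophil had shares of 0.422%, 0.164% and 0.183%, each resting on 1 neutrophil barcode, and control 3 had 0 of 367, which allows up to 0.817%. In tumors 1 to 5 the shares were 0.599% (2 of 334), 2.99% (51 of 1703), 0.346% (4 of 1155), 0.240% (9 of 3744) and 0.495% (6 of 1211). Control 1 lay above tumors 3 and 4. The means were 0.192% ± 0.174 (SD, n = 4) and 0.935% ± 1.16 (SD, n = 5), and the difference of 0.743 percentage points missed the threshold of 0.05 (two-sided exact permutation p = 0.0635). It was 0.228 without tumor 2 (exact permutation p = 0.114). Immune barcodes were 0.801% of kept barcodes in the controls and 12.02% in the tumors. Intervals and zero limits cover counting error only.

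**Figure D1:**
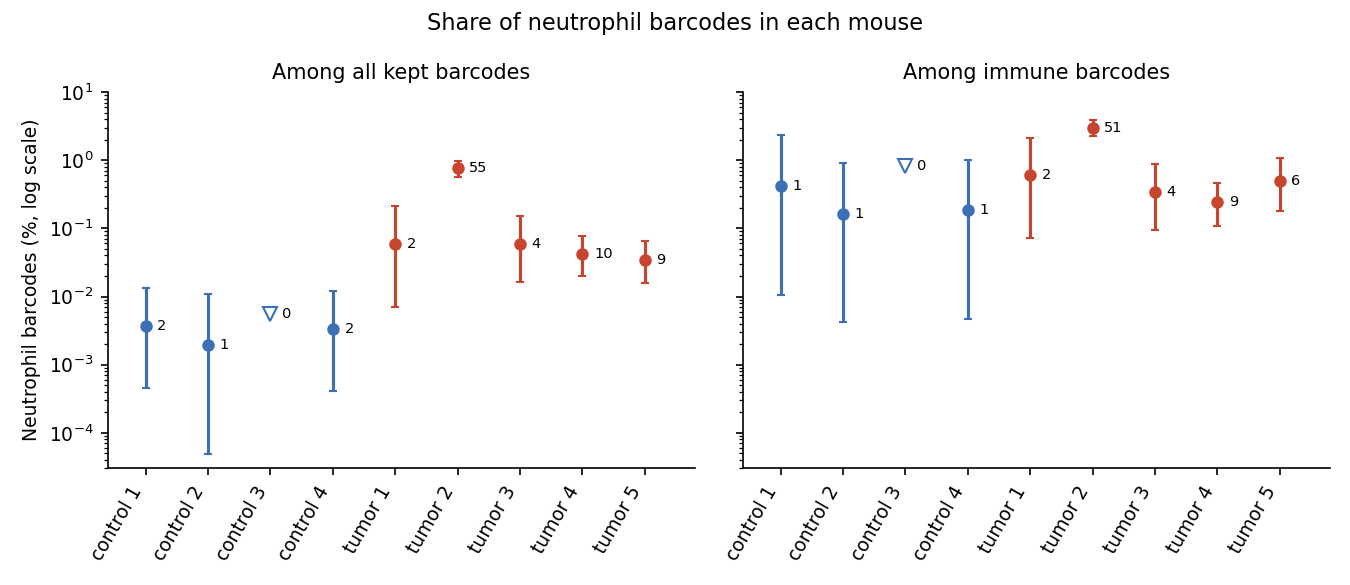
Share of neutrophil barcodes among all kept barcodes (left) and among immune barcodes (right) in each mouse, in percent on a log axis. Points are shares with their exact 95% binomial intervals. The number beside each point is its count of neutrophils, on the right only of those that were immune barcodes. Open triangles mark the upper limit of 3 counts for control 3, which had 0. Left, every tumor lies above every control, and right, control 1 lies above tumors 3 and 4.

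The calprotectin genes were the most abundant of the 10 selection genes in every mouse with neutrophils. S100a8 (GRCm38 chromosome 3, 90668978 to 90670035, plus strand) stood at 9213, 23731, 73744, 32598 and 8932 CPM (counts per 1000000 UMIs, summed over the neutrophils of a mouse) in tumors 1 to 5. S100a9 (chromosome 3, 90692632 to 90695721, minus strand) stood at 16507, 38769, 121203, 37303 and 9584 CPM. Since these genes chose the barcodes, their levels are a description.

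The other selection genes were less abundant. Lcn2, which encodes the siderophore-binding protein lipocalin 2, was found in 72 of 80 tumor neutrophils and 3 of 5 control neutrophils. It was also found in 3.02% of other immune and 3.25% of non-immune tumor barcodes, against 0% and 0.0234% of those of the controls. With Lcn2 left out of the rule and 4 of the other 9 genes asked for, each tumor was still above each control in its share of kept barcodes (difference in means 0.182 percentage points, exact permutation p = 0.0159). Retnlg was found in 65 of 80 and 1 of 5, and its level was 3422 to 12271 CPM in tumors. Cxcr2 was found in 54 of 80 and 2 of 5, and Csf3r in 51 of 80 and 1 of 5. Wfdc21, a whey acidic protein family member, was found in 53 and 3, and Mmp8, the neutrophil collagenase, in 39 and 1. Among other immune barcodes of the tumors, which were deeper at a median of 2076 UMIs against 1574.5 for tumor neutrophils, 0.136% held Cxcr2 and 14.5% held Csf3r.

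**Figure D2:**
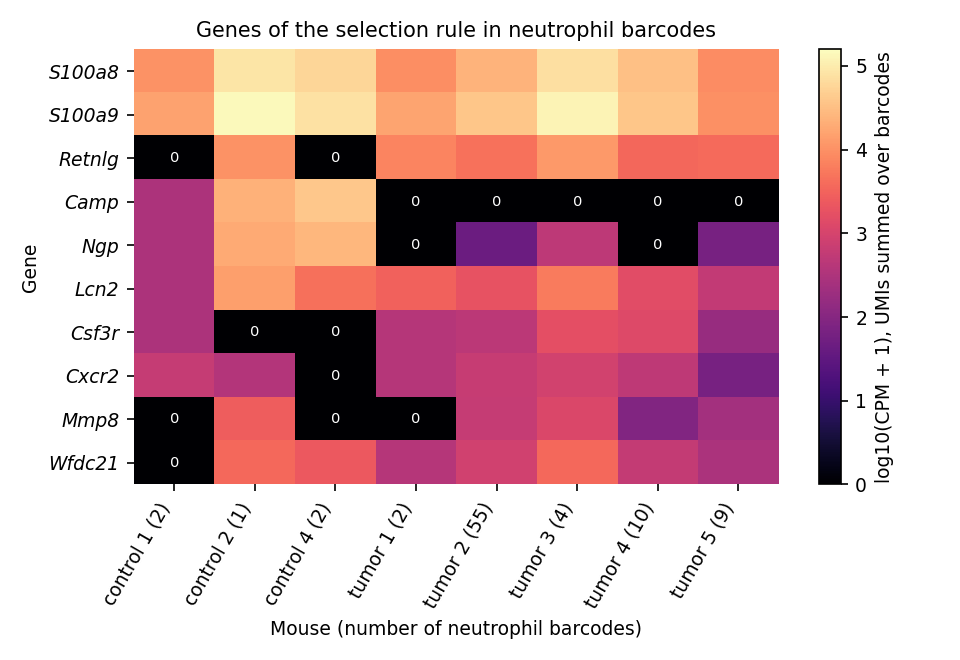
Level of the 10 selection genes in the neutrophils of each mouse, as log10(CPM + 1) of UMIs summed over barcodes, with the number of barcodes in parentheses and 0 where no UMI was counted. Camp is at 0 in all 5 tumors and at 307 to 39413 CPM in the 3 controls, while Retnlg is above 0 in all 5 tumors and in control 2.

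The label was checked on 12 neutrophil genes that the selection did not use, namely Ly6g, Ltf, Mmp9, Cd177, Ifitm6, Hdc, Msrb1, Il1r2, Trem1, G0s2, Stfa2l1 and Anxa1. At least 3 of them were found in 66 of 80 tumor neutrophils (82.5%) and 2 of 5 control neutrophils, compared with 0.594% of other immune barcodes and 0.178% of non-immune barcodes of the tumors, whose median depths were 2076 and 1088 UMIs. In tumors 1 to 5 these were 2 of 2, 50 of 55, 4 of 4, 7 of 10 and 3 of 9 neutrophils, so the share was lowest in tumor 5 and the pooled count rests mostly on tumor 2. The other 14 tumor barcodes and 3 control barcodes held fewer than 3 of them. Ly6g itself, the antigen of the antibody most used to sort mouse neutrophils, was sparse, with 19 UMIs in 13 tumor neutrophils.

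The 85 barcodes differed widely in purity. S100a8 and S100a9 together made up 0.0489% to 29.7% of a barcode's UMIs, with a median of 7.37%, and 9 barcodes were below 1%. In tumor 2, 10 of the 55 neutrophils also held UMIs in 3 or more genes of a microglia list that includes P2ry12, Tmem119, Cx3cr1 and C1qa. Those 10 carried 816 of the 851 microglia-gene UMIs of that tumor's neutrophils, were deeper (median 2849 against 1581 UMIs) and had less S100a8 and S100a9 (median 2.35% against 9.50%). In the other 4 tumors and the controls 0 neutrophils did so. The deepest neutrophil of all, in tumor 5, had 13552 UMIs, of which 11 were S100a8 and 12 S100a9, 61 came from the 4 endothelial genes and 49 from Fn1. Whether such barcodes hold a neutrophil with another cell, or another cell with free neutrophil RNA, was not tested.

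**Figure D3:**
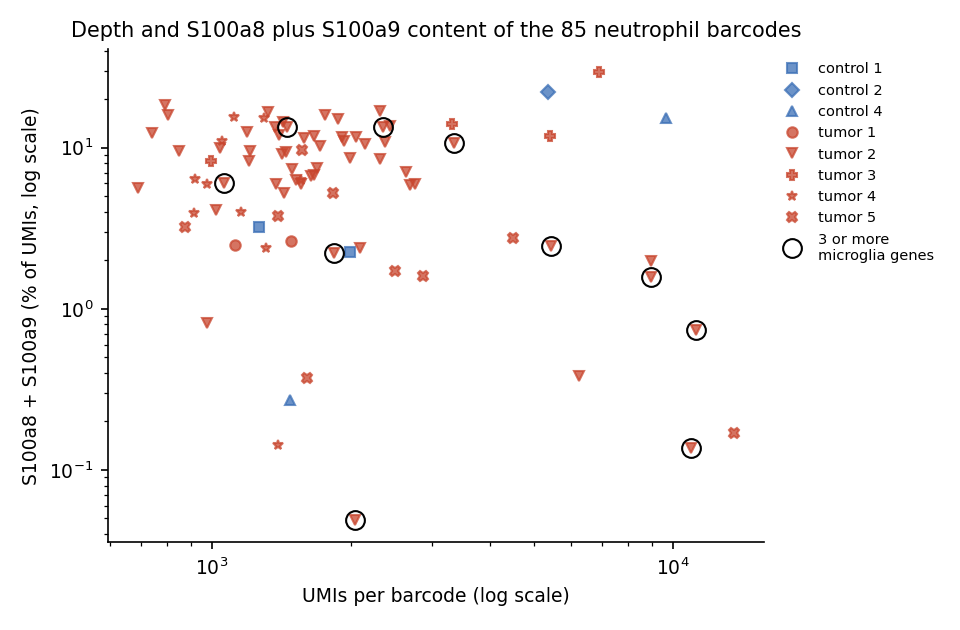
S100a8 plus S100a9 as a percent of each barcode's UMIs against its total UMIs, both on log axes, for the 85 neutrophil barcodes. Symbols mark mice, red is tumor and blue is control, and black circles mark the 10 barcodes with 3 or more microglia genes, all in tumor 2. Barcodes under 1% include 3 of over 10000 UMIs.

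Genes of other blood cells ranged from 0 to levels above those of other immune barcodes. All 6 eosinophil and basophil genes and all 5 genes of B cell progenitors had 0 UMIs in the 85 barcodes, and the monocyte gene Ccr2 and the macrophage genes Mrc1, Cd163 and Lyve1 also had 0. Of 6 T and NK genes, Cd3d had 11 UMIs, 9 of them in tumor 3, and Nkg7 had 1. Their sum in tumor 3 was 541 CPM in neutrophils and 175 CPM in other immune barcodes. Of the other monocyte genes, Csf1r was the most frequent, in 13 of the 55 neutrophils of tumor 2 and in 0 elsewhere. In tumor 2, Ms4a6c and Fn1 were found in 6 neutrophils each, and F13a1 and Ms4a4c in 2 each. Fn1 was also found in 1 neutrophil of tumor 5, and Ly6c2 in 5 tumor and 2 control neutrophils. Summed CPM of the 7 monocyte genes was 0 to 1597 in tumor neutrophils, the highest in tumor 5 through Fn1, against 902 to 2131 in other immune barcodes of the tumors. In tumor 5 the neutrophils were above the other immune barcodes, which were at 902 CPM. Of the macrophage genes, Ms4a7 was found in 1 and Adgre1 in 3 neutrophils, and the summed level of 180 to 12330 CPM in tumors was mostly Apoe. The 5 red cell genes were highest in tumor 3, at 2165 CPM in its neutrophils and 14385 CPM in its other immune barcodes. In control 1 they were at 614 and 223 CPM. Apoe, which is abundant in the non-immune barcodes of all libraries, was at 12293 CPM in the neutrophils of tumor 2 and 8984 CPM in those of tumor 4, against 6950 and 15598 CPM in non-immune barcodes, and at 180 CPM in tumor 3 against 4361. Genes of astrocytes were at 180 to 3071 CPM in the tumor neutrophils. In tumor 4 they were at 2310 CPM, above 1207 CPM in other immune and 2041 CPM in non-immune barcodes. In tumors 1, 2, 3 and 5 they were below the non-immune barcodes. Against other immune barcodes they were also higher in tumors 1, 2 and 5, at 3071, 1238 and 1467 against 1809, 915 and 1430 CPM. In tumor 3 they were lower, at 180 against 781 CPM. Genes of neurons were at 2880 to 4608 CPM in the control neutrophils and 9077 to 10637 CPM in non-immune control barcodes. In tumors 1 to 5 they were at 384, 2363, 241, 513 and 1532 CPM in neutrophils, and 1501, 1182, 820, 200 and 729 CPM in other immune barcodes. Only in tumor 4 did neutrophils exceed the non-immune barcodes, at 438 CPM. Endothelial genes were above both other sets in tumors 4 and 5, at 599 and 1989 CPM, and below the non-immune barcodes in tumors 1, 2 and 3. The part of all these genes in the results was not tested.

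The stage of the cells was read from 2 groups of selection genes. Camp (GRCm38 chromosome 9, 109847379 to 109849617, minus strand) and Ngp (chromosome 9, 110419747 to 110423012, plus strand) were taken as genes of late marrow stages. Retnlg (chromosome 16, 48872621 to 48874496, plus strand), Csf3r (chromosome 4, 126024550 to 126044440, plus strand) and Cxcr2 (chromosome 1, 74153989 to 74161246, plus strand) were taken as genes of mature cells, not as marks of release. A barcode was called immature when its Camp plus Ngp UMIs outnumbered those of the other 3 genes, and mature in the reverse case.

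Tumor neutrophils were mature by this measure. In tumors 1 to 5, 2 of 2, 55 of 55, 4 of 4, 10 of 10 and 8 of 9 were mature, and the remaining barcode of tumor 5 had no UMI of any of the 5 genes. Retnlg was found in 65 of the 80 tumor neutrophils and Cxcr2 in 54. A few barcodes, in tumors 2 and 4, were mature through Csf3r alone. That gene is less specific, with UMIs in 14.5% of other immune barcodes of the tumors, against 0.136% for Cxcr2 and 0.111% for Retnlg. Among these few, a deep barcode of tumor 2 had 1 Csf3r UMI, 351 UMIs of microglia genes and 0 check genes. Camp had 0 UMIs in all 80 tumor neutrophils, or 0 of 194923 UMIs, which allows up to 15.4 CPM. Ngp had 16 UMIs in 8 of the 80, and 7 of these 16 came from 1 deep barcode of tumor 3 that also had 145 Retnlg UMIs.

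Control neutrophils were mostly immature by the same measure, 4 of 5. The immature share was 50% in control 1, 100% in control 2 and 100% in control 4, against 0% in each of the 5 tumors. These 5 genes belong to the selection rule, so the shares are a description and no test is given. The second barcodes of controls 1 and 4 reached 4 selection genes only with Camp or Ngp, whereas 0 tumor neutrophils needed them. The control side rests on 5 barcodes, and only tumors 2 and 4 reached the 10 neutrophils that had been set as the minimum for this share. With the 5 genes read as presence or absence, 4 of 5 control neutrophils and 8 of 80 tumor neutrophils held any Camp or Ngp UMI.

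**Figure D4:**
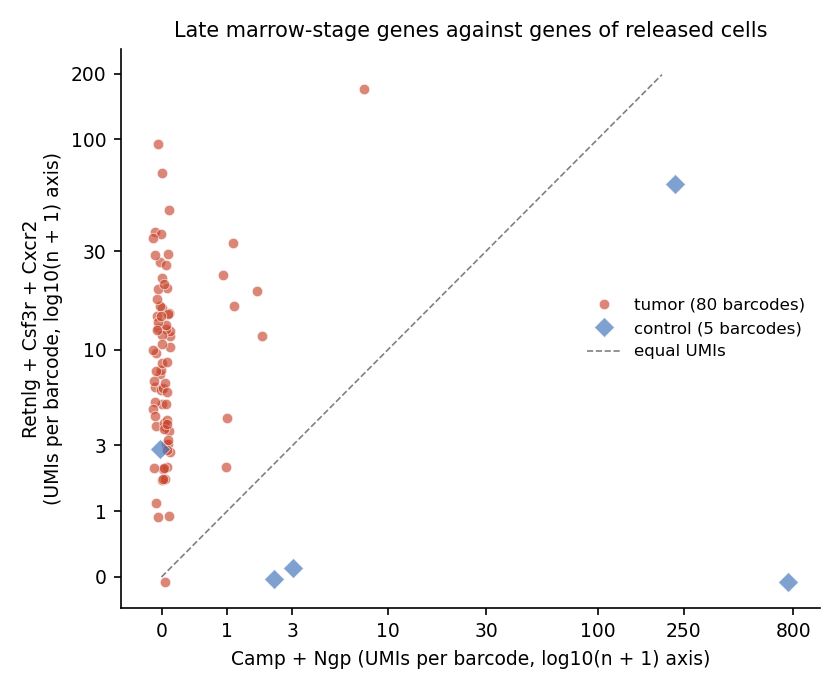
Camp plus Ngp UMIs against Retnlg plus Csf3r plus Cxcr2 UMIs in each neutrophil barcode, both axes log10(n + 1) with small random shifts so that points do not hide each other. The 80 tumor barcodes lie on or above the dashed line of equal UMIs, with 72 of them at 0 on the horizontal axis, and 4 of 5 control barcodes lie to its right.

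The control barcodes were not alike. The neutrophil of control 2 had 5347 UMIs, with 441 of S100a8, 752 of S100a9, 121 of Camp, 101 of Ngp, 75 of Lcn2 and 55 of Retnlg. It had UMIs in 10 of the 12 check genes, with 29 UMIs of Ltf. It also had 17 UMIs of Olfm4, which is not a check gene but a secondary granule protein found in a subset of neutrophils. It therefore carried transcripts of secondary granules together with Retnlg, Cxcr2 and Mmp9.

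The deeper neutrophil of control 4 had no UMI of the 3 genes taken to mark mature cells. It had 9639 UMIs, with 631 of S100a8, 840 of S100a9, 438 of Camp and 292 of Ngp, and 0 of Retnlg, Csf3r, Cxcr2 and Mmp8. It also had 34 UMIs of Ltf, 20 of Fcnb (ficolin B, a lectin made in marrow precursors), 39 of Chil3 and 7 of Cebpe, the transcription factor that drives secondary granule genes. It had 3 UMIs of Mki67 and 6 of Top2a, genes of dividing cells, which were also found in 7 and 8 tumor neutrophils. The summed level of the 10 cell cycle genes overlapped, at 60.2 to 1152 CPM in tumors and 187 to 2070 CPM in controls. The marrow B cell genes were at 0 in this barcode, as were the primary granule genes Mpo, Elane, Prtn3 and Ctsg.

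The other 3 control barcodes had fewer UMIs of S100a8 and S100a9. These genes were 2.26% and 3.24% of the UMIs in the barcodes of control 1, close to the 2.50% and 2.63% in those of tumor 1. The deeper barcode of control 1, with 1988 UMIs, had 21 UMIs of S100a8, 24 of S100a9, 2 of Cxcr2 and 1 of Csf3r, and was the 1 mature control neutrophil. The other of control 1 had 1267 UMIs with 13 of S100a8, 28 of S100a9 and 1 each of Camp and Ngp, and 0 of the immune genes and check genes. The second barcode of control 4 had 1474 UMIs with 1 of S100a8, 3 of S100a9, 3 of Ngp and 1 of Wfdc21, and was likewise without immune and check genes. When neutrophils were limited to barcodes with 3 or more check genes, 1 barcode in each of controls 2 and 4 remained, and both were immature.

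Secondary granule genes outside the rule were highest in controls 2 and 4, each through 1 deep barcode. Their summed level was 614, 18141 and 11338 CPM in controls 1, 2 and 4 and 5758, 2243, 7038, 2652 and 261 CPM in tumors 1 to 5. Control 1, where only Hp had UMIs, was below 4 of the 5 tumors. All 9 genes of the list had UMIs in control neutrophils and 5 had any in tumor neutrophils, and the mean level was higher in the controls for 8 of the 9. Over all 12477 genes with a UMI in any neutrophil, the mean was higher in the controls for 3807 and higher in the tumors for 8670 (69.5%), while 58.5% had 0 UMIs in the controls, where fewer barcodes were summed. Ltf was at 0, 5424 and 3059 CPM in controls 1, 2 and 4 and at 0 in the 80 tumor barcodes. Fcnb, Orm1 and Itgb2l had 20, 2 and 3 UMIs in controls and 0 in tumors. Haptoglobin (Hp) had the higher mean in the tumors, at 3839, 720, 3368, 770 and 97.8 CPM in tumors 1 to 5 and 614, 935 and 360 CPM in the controls, with overlapping groups. Lyz2, which encodes lysozyme, Chil3, Cd177 and Olfm4 overlapped as well, with Lyz2 at 0, 5985 and 2250 CPM in controls and 0 to 3068 CPM in tumors. No test across genes was made, because 0 control mice reached 10 neutrophils, and the differences in the gene groups that follow are values without a test.

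Primary granule genes were at or near 0 in both groups. Mpo, Elane, Prtn3 and Ctsg had 0 UMIs in all 85 barcodes, and Prss57 and Ms4a3 had 1 UMI each, the former in tumor 4 and the latter in control 4. Tertiary granule and secretory vesicle genes were found in both groups. Mmp9, which encodes gelatinase B, had UMIs in 24 tumor neutrophils from all 5 tumors, at 97.8 to 481 CPM, and in 1 control neutrophil at 1870.2 CPM of that mouse. Pglyrp1, a peptidoglycan-binding protein, was at 2586 CPM or less in tumors, with UMIs in each, and 0, 1870.2 and 1799.7 CPM in the controls. Slpi, an inhibitor of elastase, was found in 53 tumor neutrophils and 2 control neutrophils.

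The subunits of NADPH oxidase, which makes superoxide, were unevenly found. Cybb, its membrane subunit, had 20 UMIs in 2 control neutrophils but 9 UMIs in 5 neutrophils of tumor 2 and 0 in tumors 1, 3, 4 and 5. In the same tumors 19.5% of other immune barcodes held Cybb. Cyba, the partner of Cybb in the membrane, was found in 40 tumor neutrophils, at 391 to 1203 CPM, and the cytosolic subunits Ncf1 and Ncf4 in 25 and 18. In tumor 2, Cyba was in 22 of 55 neutrophils and 1288 of 1652 other immune barcodes. In tumor 4 it was in 6 of 10 neutrophils and 2861 of 3735 other immune barcodes.

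The inflammatory genes varied in the tumor neutrophils, and 3 of the 14 were above the other immune barcodes in all 5 tumors. Il1b, which encodes interleukin 1β (GRCm38 chromosome 2, 129364570 to 129371139, minus strand), was found in 71 of 80 tumor neutrophils, at 384, 1830.1, 11248, 7101 and 1499.5 CPM in tumors 1 to 5. It was found in 1 of 5 control neutrophils, with 1 UMI. The share of barcodes with an Il1b UMI was 88.8% in tumor neutrophils, 12.1% in other immune barcodes and 0.711% in non-immune barcodes of the tumors, at median depths of 1574.5, 2076 and 1088 UMIs. In each of the 5 tumors the Il1b level in neutrophils was above that of the other immune barcodes, which ranged from 43.5 to 317 CPM. In tumor 1 this level rests on 1 UMI, the same count as in control 1. Ccl4, a CC chemokine, was above the other immune barcodes in 1 of 5 tumors. In tumor 2 it was at 128 CPM in neutrophils and 536 CPM in other immune barcodes.

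Cxcl2 (chromosome 5, 90903871 to 90905938, plus strand), a chemokine that binds Cxcr2, was found in 62 of 80 tumor neutrophils. In tumor 2 it was in 49 of 55 neutrophils, 140 of 1652 other immune and 603 of 5543 non-immune barcodes. The Cxcl2 level in neutrophils was 0, 4815, 1263, 6502 and 4107 CPM in tumors 1 to 5 and 0 in all controls. The 0 in tumor 1 rests on 2605 UMIs and allows up to 1152 CPM, and the 0 in controls 1, 2 and 4 allows up to 922, 561 and 270.0 CPM. Tumors 2 to 5 lay above these limits. A single barcode held 74.6% of the Cxcl2 UMIs in tumor 5 and another held 85.7% in tumor 3, whereas the highest barcode in tumor 2 held 9.03%. Both Il1b and Cxcl2 were found in 57 tumor neutrophils and neither in 4.

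Of the 14 inflammatory genes, 12 had a higher mean level in tumor than in control neutrophils, 1 a lower one, and Il1a had 0 UMIs in both, while 11.5% of other immune barcodes of the tumors held it. This count is read against the 69.5% of all genes that were higher in tumors, and the 8 microglia genes and 4 endothelial genes were likewise all higher there. Ccl6, a chemokine of myeloid cells, was at 2303, 668, 1925, 428 and 130 CPM in the tumors and 0 in the controls. Tnf had 13 UMIs in 4 tumor neutrophils, and Ccl3 14 UMIs in 9. Osm, which encodes oncostatin M, was found in 24 tumor neutrophils and 1 control neutrophil. Ptgs2, the inducible cyclooxygenase, had 15 UMIs in 8 tumor neutrophils.

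Transcription factor genes differed in how they were spread over the groups. Cebpb, a factor of the CCAAT/enhancer-binding family that acts in emergency granulopoiesis and inflammation, was found in 74 of 80 tumor neutrophils at 768 to 3251 CPM, and had 1 UMI in the controls. Junb was at 424 to 3789 CPM in tumors and also had 1 UMI in controls. Spi1, which encodes the myeloid factor PU.1, was found in 47 tumor and 2 control neutrophils, and Cebpd in 27 and 2. Cebpe had 7 UMIs in control 4 and 1 in tumor 4. Cebpb is also widely expressed outside neutrophils, with UMIs in 53.9% of other immune barcodes and 34.0% of non-immune barcodes of the tumors.

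Receptors that neutrophils use to sense their surroundings ranged from 0 barcodes, for Ffar2, to more than 1 in 2. Ccr1, a receptor of CC chemokines, was found in 50 tumor neutrophils from all 5 tumors. Cxcr4, which retains neutrophils in the marrow and is regained on aged cells, was found in 17. Csf2ra and Csf2rb, the chains of the GM-CSF receptor, were found in 17 and 16 of 80. In tumor 2 they were in 10 and 13 of 55 neutrophils, and in 393 and 287 of 1652 other immune barcodes. In tumor 4 they were in 4 and 0 of 10 neutrophils, and in 1063 and 253 of 3735 other immune barcodes. Csf2ra was at 32.6 to 513 CPM in the 5 tumors, and Csf2rb at 0 in tumors 1 and 4. Il1r2, the decoy receptor of interleukin 1, was found in 50 tumor neutrophils and 1 control neutrophil. Of the 12 cytokine receptor genes 11 had a higher mean level in tumors, against 69.5% of all genes, and 9 had 0 UMIs in the controls, where a few UMIs per gene would not be seen at this depth.

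Genes linked to suppressive neutrophils gave a mixed picture. Arg1, which encodes arginase 1, had 0 UMIs in all 85 barcodes, which allows up to 15.4 CPM in tumor neutrophils. Nos2 had 4 UMIs in 4 neutrophils of tumor 2 and Cd274, which encodes PD-L1, had 3 UMIs in 3. Arg2 had 22 UMIs in 17 tumor neutrophils of tumors 2 and 3. Wfdc17, a whey acidic protein family member, was far more abundant, at 1535.5, 4463, 1143, 2396 and 65.2 CPM in tumors 1 to 5 and 0 in controls, and was also found in 15.2% of other immune barcodes. Its UMIs in tumor 3 all came from 1 barcode. The zeros in controls 1, 2 and 4 allow up to 922, 561 and 270 CPM, above its level in tumor 5. Cd84 was found in 19 tumor neutrophils.

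Among the interferon-response genes, Ifitm1 and Ifitm3, which restrict viral entry, and Ly6e were found most often. Ifitm1 (GRCm38 chromosome 7, 140967221 to 140969825, plus strand) was at 768, 3128, 1143, 1283 and 685 CPM in tumors 1 to 5 and 0 in controls. It was found in 59 of 80 tumor neutrophils but in 1.42% of other immune barcodes. Its zeros in controls 1, 2 and 4 allow up to 922, 561 and 270 CPM. Tumors 1 and 5 were below the highest of these limits. Ifitm3 was found in 51 tumor neutrophils and 3 of 5 control neutrophils. It was also common in other barcodes. In tumor 2 it was in 37 of 55 neutrophils, 810 of 1652 other immune and 3157 of 5543 non-immune barcodes. In tumor 4 it was in 6 of 10 neutrophils and 2683 of 3735 other immune barcodes. Ly6e was found in 30 tumor and 2 control neutrophils, but also in 64.8% of other immune and 20.6% of non-immune tumor barcodes. Ifit1, Ifit2 and Ifit3 had 2, 4 and 11 UMIs in tumor neutrophils. Isg15 was found in 14 of them, with 12 of its 32 UMIs in tumor 4.

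**Figure D5:**
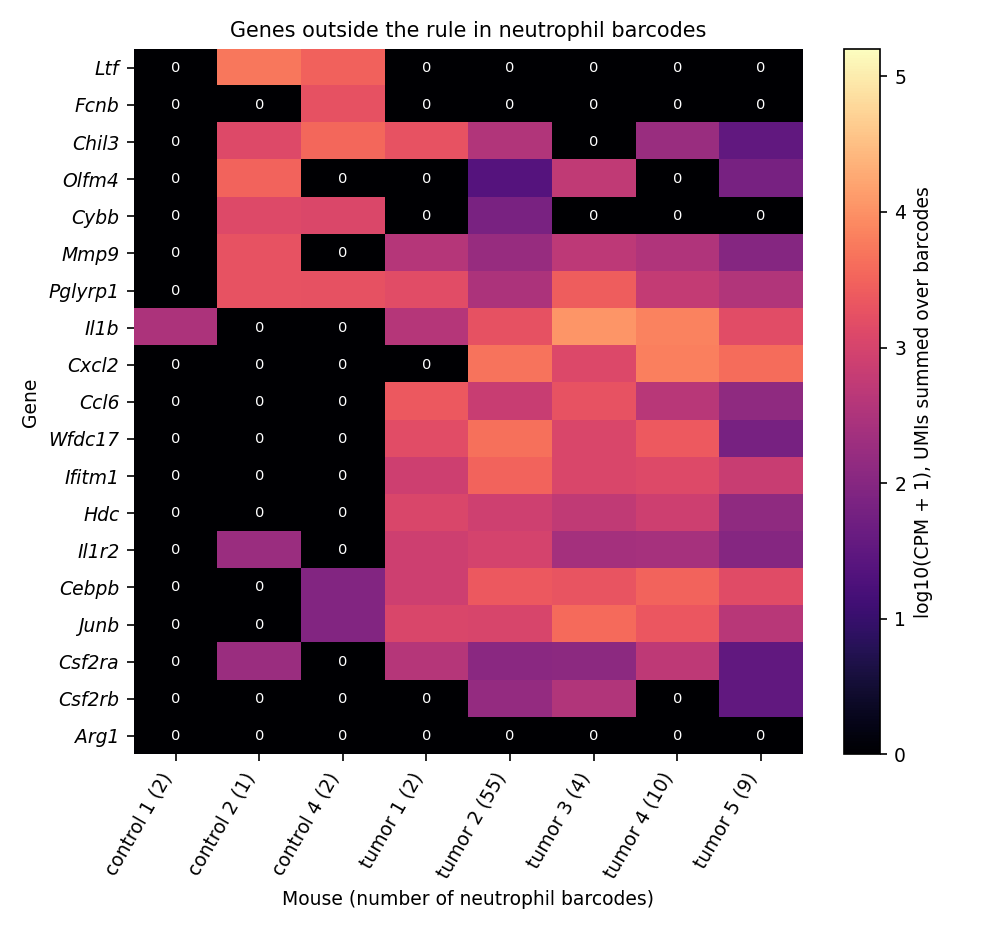
Level of 19 genes outside the selection rule in the neutrophils of each mouse, as log10(CPM + 1) of UMIs summed over barcodes, with the number of barcodes in parentheses and 0 where no UMI was counted. Ltf has values in controls 2 and 4 and is at 0 in the tumors, Cxcl2, Ccl6, Wfdc17, Ifitm1 and Hdc are at 0 in the controls, and Arg1 is at 0 in all. Zeros in controls 1, 2 and 4 allow up to 922, 561 and 270 CPM.

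The genes that most set the neutrophils apart from all other kept barcodes were ranked in tumors 2 and 4, the samples with 10 or more neutrophils, leaving out the selection genes. The 20 leading genes were Il1b, Slpi, Wfdc17, Ifitm1, Hp, Cxcl2, Cxcl3, Hdc, G0s2, Acod1, Il1r2, Srgn, Cstdc4, S100a11, Stfa2l1, Clec4d, Lilr4b, Mxd1, Lrg1 and Slfn4. The log2 ratio of (CPM + 10) averaged 6.37 for Il1b and 4.71 for Slfn4, the last of the 20. The ranking used tumor neutrophils alone, so any contrast of these genes with control neutrophils is a description. Hdc, which encodes histidine decarboxylase, the enzyme that makes histamine, averaged 5.89 and was found in 59 tumor neutrophils and 0 control neutrophils. It was at 1152, 810, 541, 770 and 130 CPM in tumors 1 to 5. The zeros in controls 1, 2 and 4 allow up to 922, 561 and 270 CPM, and only tumor 1 was above all of these. G0s2, an inhibitor of lipolysis, was at 0 and 120 CPM in tumors 1 and 3 but at 1058, 3422 and 1564.7 CPM in tumors 2, 4 and 5. Acod1, which makes itaconate, was at 0, 255, 361, 856 and 32.6 CPM. Stfa2l1, a stefin that inhibits cathepsins, was highest in tumor 3 at 3248 CPM and 0 in tumor 5.

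The threshold of 4 selection genes cut through weakly marked barcodes. At exactly 4 genes there were 10 tumor and 2 control barcodes, with a median of 5.95% and 1.75% of UMIs from S100a8 and S100a9. At 3 genes, just outside, there were 13 tumor and 2 control barcodes, with medians of 1.40% and 0.0665%. Of the 13 tumor barcodes just outside 5 held 3 or more check genes, as did 5 of the 10 just inside. The 2 control barcodes just outside held 1 UMI each of S100a8, S100a9 and Ngp.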

How the data were processed

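The authors aligned 10x Genomics 5′ libraries of 4 control brains and 5 tumors to mm10 by Cell Ranger. The matrix headers give its version as 6.1.2 and the submitters' processing notes as 7, beside Scanpy 1.8.2. What they deposited are raw UMI counts, 1 per gene and barcode. No cell annotation was used here. In control 4 the feature and barcode lists are shorter than the matrix, so its barcodes were used by column and their names were not compared with other libraries. Depth and precision are given with the results.

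Barcodes were kept at 200 or more genes and under 15% mitochondrial UMIs, and neutrophils were chosen by the rule of 4 of 10 genes. No doublet caller was run. Possible doublets, with UMIs in 3 or more of 8 microglia genes, were left out as an alternative. CPM is counts per 1000000 UMIs over the summed barcodes of a mouse. Each mouse was 1 sample, and nothing in the labels ties mice by litter or batch. Shares in tumors and controls were tested by exact permutation over mice, two-sided (scipy 1.17.1, Python 3.11.15) and shown with exact Clopper-Pearson intervals at 95%. A count of 0 was given an upper limit of 3 counts. A count model across genes was planned for mice with 10 or more neutrophils, but 0 control mice and 2 tumors reached this number, and no mouse had 5 neutrophils of both stages, so genes are given as values. The genes named are the 10 of the rule, those of lists of granule, receptor, inflammatory and other cells' genes, and the 20 outside the rule with the highest mean log2 ratio of (CPM + 10) to all other kept barcodes. The members, lists and tests were chosen with earlier results of these data known. The alternatives were other limits on genes, mitochondrial UMIs and rule genes, barcodes thinned to 500 UMIs, the 10000 barcodes with most UMIs, pairing by replicate number and each sample left out. No limit on mitochondrial UMIs, the requirement of 3 check genes and the rule without Lcn2 were added after seeing the data. A few genes of the lists are not reported here. Gene positions are from GENCODE M21 (GRCm38).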

Additional observations from a re-analysis of the deposited data

Results flagged for a closer look

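Tumor 2 stood far above the other tumors in its share of neutrophils, at 0.759% of kept barcodes and 2.99% of immune barcodes, with gaps to the next tumor of 0.965 and 0.870 of the whole range. The other shares of kept barcodes were 0.0342% to 0.0596%. Tumor 2 was also the highest tumor in Ifitm1 in neutrophils, at 3128 CPM. Tumor 3, whose 4 neutrophils were the deepest among tumors with a median of 4360 UMIs, was the highest of the tumors in S100a9 (121203 CPM), Ngp (481 CPM), Wfdc21 (3729 CPM) and Stfa2l1 (3248 CPM). In tumor 3 a single barcode held 62.4% of the S100a9, 87.5% of the Ngp and 64.5% of the Wfdc21 UMIs. Control 2 was higher than tumor 3 in S100a9, Ngp and Wfdc21. Of 26 groups of values looked at, 8 had such a sample by Dixon's rule, which sets the gap to the next value against the range. No rate by chance is given, because the values are uneven and several of the genes were counted in the same barcodes.

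Among the barcodes left out by the quality limits, 9 in tumors held 4 or more of the selection genes, 7 of them in tumor 2 and 1 each in tumors 1 and 3. In control libraries 0 did.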

How the results depend on the processing

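Among kept barcodes the larger share in tumors (0.188 percentage points, exact permutation p = 0.0159) stayed past the threshold when 3 or 5 selection genes were asked for, at a mitochondrial limit of 10% or none, at 500 or more genes, in barcodes thinned to 500 UMIs, without possible doublets, with 3 check genes required, and with Lcn2 left out of the rule, with differences of 0.0989 to 0.233 points. It did not pass in the 10000 barcodes with most UMIs (0.197 points, exact permutation p = 0.0794). With mice left out in turn it was 0.0461 to 0.227 points. Among immune barcodes the difference of 0.743 points (exact permutation p = 0.0635) passed at 3 selection genes (0.816, p = 0.0476), at 500 or more genes (0.790, p = 0.0317) and with 3 check genes required (0.713, p = 0.0317), all by the exact permutation test, and ranged from 0.228 to 0.917 with mice left out, passing only without control 1 (exact permutation p = 0.0357). It did not pass at 5 selection genes (0.680, exact permutation p = 0.111), at a mitochondrial limit of 10% (0.758, exact permutation p = 0.206), thinned to 500 UMIs (0.530, exact permutation p = 0.571), or without possible doublets, a mitochondrial limit or Lcn2 (0.6255, 0.566 and 0.731, exact permutation p = 0.0635 each). Why these settings differ was not tested.

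With the replicate numbers 1 to 4 paired as a replicate block, the differences were 0.227 points among kept barcodes and 0.853 points among immune barcodes, higher in the tumor in 4 of 4 pairs (exact sign flips, p = 0.125, the smallest that 4 pairs allow). The numbers are not known to pair the mice: deviations of same-numbered libraries from their group means correlated at 0.291, -0.0487, -0.0875 and 0.156 over genes.

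The mean immature share was 0% in the tumors with enough neutrophils (2 tumors, but 3 at a minimum of 5 neutrophils and 1 at 5 selection genes) and 0% to 0% with a mouse left out. Counting any Camp or Ngp UMI as immature gave a mean over tumors 2 and 4 of 3.64%, from 4 of 55 and 0 of 10 barcodes. The planned edgeR count models were not run, since at 5 or more neutrophils there were still 0 control mice. Depth limits what can be seen in single mice, from 2605 UMIs in the neutrophils of tumor 1 and 3255 in those of control 1 to 133329 in those of tumor 2.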

Other observations

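Camp and Ngp UMIs were also counted outside the neutrophil barcodes. In controls 1 to 4 there were 21, 33, 15 and 78 Camp UMIs and 19, 42, 17 and 66 Ngp UMIs, and 0 of these barcodes had 3 or more Camp UMIs. In tumors 1 to 5 there were 0, 3, 0, 61 and 2 Camp UMIs and 0, 1, 0, 1 and 1 Ngp UMIs. In tumor 4, 61 Camp UMIs stood beside 1 Ngp UMI, and 2 barcodes held 16 of the 61.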
